A study of Homo sapiens with 12 samples.

Results

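The SR proteins are a family of serine- and arginine-rich splicing factors. This account covers the 10 family genes SRSF1, SRSF2, SRSF3, SRSF4, SRSF5, SRSF6, SRSF7, SRSF9, SRSF10 and SRSF11 and their individual isoforms in the HCT116 colorectal cancer cell line during hypoxia. Members were chosen by gene name, and an isoform was taken where the assembled transcript either matched a reference transcript at all splice sites (class code =) or shared at least 1 splice site with one (class code j). This gave 156 of the 286562 transcripts of these classes, and 10 of 56537 gene names. HCT116 is an established human cell line; its cells were grown at 21% oxygen (0 h) or moved to 1% oxygen for 1, 2 or 24 h, with 3 libraries of strand-specific poly(A) RNA at each of the 4 time points and 12 in all. No gene was altered and no drug was given in any group. The labels call the 3 libraries of a time point biological replicates. Hypoxia began 24 h after the cells were plated. Whether the 0 h cells were collected at that point or together with the 24 h cells is not given in the sources used here, so hypoxia and time in culture cannot be told apart at 24 h.

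SR proteins bind exonic enhancers of pre-mRNA through RNA recognition motifs and recruit the splicing machinery through domains rich in arginine and serine. Most of their own genes carry highly conserved "poison" segments. When such a segment is kept in the RNA it brings in a premature stop codon, and the transcript is a target of nonsense-mediated decay, the pathway that degrades mRNAs whose stop codon lies well upstream of the last exon junction. Many SR proteins are known to promote inclusion of their own poison segment, which keeps their level in balance. Below, an isoform is called coding or noncoding by the annotation of its nearest reference transcript, and noncoding isoforms comprise nonsense-mediated decay (NMD) transcripts, retained-intron transcripts and transcripts without a defined coding sequence.

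The poison segments of 5 members could be read from the reference annotation (hg19). Each is the stretch with the premature stop that the NMD isoform has and its main coding isoform lacks. The SRSF7 isoform has 9 further bases of its own, without a stop. A segment tells the NMD isoform from the main coding isoform, but not from every coding isoform. Coding SRSF1 ENST00000582730 and coding SRSF5 ENST00000554021 end at the same stop as the NMD isoform of their gene. In SRSF3 the segment is a cassette exon of 456 bases at chr6:36567598-36568053. In SRSF6 it is a cassette exon of 268 bases at chr20:42087793-42088060. In SRSF7 (chr2:38975796-38976670, 875 bases), SRSF5 (chr14:70236228-70237183, 956 bases) and SRSF1 (chr17:56082962-56083161, 200 bases) it is intronic sequence that lengthens an exon. Each segment holds the stop codon of its NMD isoform. The last 30 bases of each shortened reading frame, in the direction of the gene and ending in the premature stop in capitals, are:
SRSF1 ENST00000581979, chr17:56083108-56083137, minus strand: tttgaccagaattggatacagtggtctTAA
SRSF3 ENST00000477442, chr6:36567602-36567631, plus strand: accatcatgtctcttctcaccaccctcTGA
SRSF5 ENST00000555547, chr14:70236249-70236278, plus strand: atgacgaggagtgcctgtgggttatccTAA
SRSF6 ENST00000483871, chr20:42087915-42087944, plus strand: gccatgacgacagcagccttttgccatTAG
SRSF7 ENST00000443213, chr2:38976658-38976687, minus strand: cggcgaagaagaagcaggtatttatttTAA
All 3 stop triplets occur among them. The reference stop lay 548 bases before the last exon junction in the SRSF3 isoform, 534 in SRSF6, 824 in SRSF1, 1090 in SRSF5 and 1138 in SRSF7. The filter on low values kept isoforms with FPKM above 0.5 in at least 3 libraries. The reference transcripts nearest to the members' isoforms past this filter were counted 1 time each, where they have an annotated stop. The distance from stop to last junction was over 50 bases in 14 of 14 NMD reference transcripts (median 512, range 105 to 1138) and in 0 of 29 coding ones. Annotators use this distance to assign the NMD type, so the split describes the labels and is no check of them. The SRSF2 NMD isoform ENST00000585202 differs in kind. It keeps the normal stop, which lies 105 bases before an additional junction in the 3′ untranslated region.

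The edges of both cassette exons are shown because they decide whether the premature stop enters the mRNA. Exonic bases are in capitals and intronic bases in lower case.
SRSF3 cassette, 3′ splice site, chr6:36567578-36567607: aaaaatgaaccccgttacagAGTCACCATC
SRSF3 cassette, 5′ splice site, chr6:36568044-36568073: CCCAAAACTAgtaagtttttcctgcttata
SRSF6 cassette, 3′ splice site, chr20:42087773-42087802: ttgatgtttcaatttgaaagTGACCAATGG
SRSF6 cassette, 5′ splice site, chr20:42088051-42088080: ACACTGTGATgtaagtacttagtgtaaaac
All 4 edges carry the usual intronic ag and gt.

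**Figure D1:**
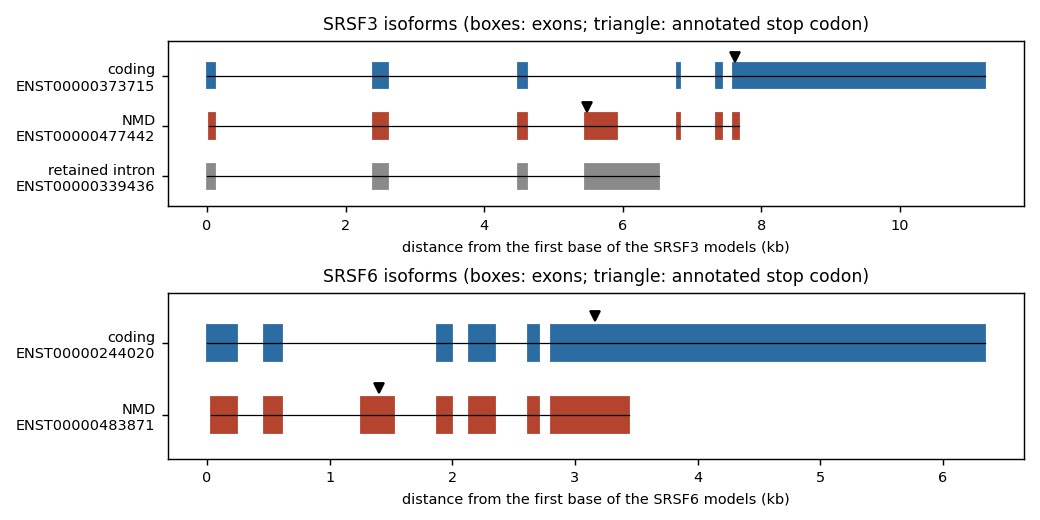
Exon structure of the SRSF3 isoforms (upper panel) and SRSF6 isoforms (lower panel) from the reference annotation, with distance from the first base of the models in kb on the horizontal axis. Blue boxes are exons of coding, red of NMD and grey of retained-intron isoforms, and triangles mark the annotated stop codon. The NMD isoforms hold an additional exon with an earlier stop, and the SRSF3 retained-intron isoform ends within the intron that follows the same cassette exon.

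Levels are given as FPKM, the Cufflinks estimate of fragments from a transcript scaled to its length in kilobases and to 1000000 mapped fragments in the library. Counts were not analysed here, so precision is judged from the 3 libraries of a time point. The smallest step between values of transcripts of about 1 kb put the FPKM minimum of 0.5 at 11.7 to 22.9 fragments. The hypoxia genes CA9, NDRG1, VEGFA and EGLN3 were all called higher at 24 h, with log2 fold changes of 1.90 to 5.34. Of 5 epithelial markers, EPCAM, KRT8, KRT18 and CDH1 were expressed, CDH1 was called higher at 24 h (7.42 ± 0.731 to 26.3 ± 1.72 FPKM, SD, n = 3; limma adjusted p = 8.48e-07), and VIL1 was at most 0.048 FPKM. Of 5 markers of other cells, PECAM1 was listed at 0 in all libraries, PTPRC, CD3E and COL3A1 did not exceed 0.0357 FPKM, and COL1A1 moved from 1.92 ± 0.206 to 6.87 ± 1.67 (SD, n = 3); the part of CDH1 and COL1A1 in the results was not tested. No pair of the 12 libraries held identical values.

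After 24 h in 1% oxygen, 7 of the 10 SR genes had fallen and none had risen. SRSF2, SRSF7, SRSF6, SRSF1, SRSF3, SRSF10 and SRSF5 were 4.25- to 2.02-fold lower, while SRSF4, SRSF9 and SRSF11 did not pass. The level of a gene is the summed FPKM of its isoforms, tested with limma on log2(FPKM + 0.5) over 16680 gene names, where a call needs an absolute log2 fold change above 1 and a Benjamini-Hochberg adjusted p under 0.01. By this rule 9.51% of all tested genes were lower at 24 h and 8.76% higher. With median-of-ratios scaling the same split was 1192 lower and 1785 higher, against 1586 and 1462. The median log2 fold change of the members was -1.25, against -0.05 over all genes. In bulk RNA, fewer transcripts per cell and fewer cells that express a gene cannot be told apart.

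SRSF2, which binds exonic enhancers and remains in the nucleus, showed the largest change. Its level was 323, 292 and 262 FPKM in the 0 h libraries and 63.9, 71.7 and 70.7 at 24 h. The groups lay far apart, and the log2 fold change was -2.08 ± 0.13 (SE; limma adjusted p = 2.73e-07). SRSF7, a zinc-knuckle SR protein that also takes part in mRNA export, had 274, 265 and 261 FPKM at 0 h and 70.03, 80.9 and 65.0 at 24 h. It fell by 1.89 ± 0.13 on the log2 scale (SE; limma adjusted p = 4.86e-07).

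SRSF6 had 168, 160 and 161 FPKM at 0 h against 52.6, 53.1 and 55.9 at 24 h, with a log2 fold change of -1.59 ± 0.08 (SE; limma adjusted p = 6.19e-08). SRSF1, the founding member of the family and a known oncoprotein, had 252, 261 and 276 FPKM at 0 h and 99.5, 94.6 and 98.3 at 24 h. Its log2 fold change was -1.43 ± 0.07 (SE; limma adjusted p = 1.07e-07). In both genes the spread within a time point was small beside the distance between them.

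SRSF3, the smallest SR protein, had 158, 149 and 150 FPKM at 0 h and 66.1, 63.8 and 51.3 at 24 h, a log2 fold change of -1.33 ± 0.10 (SE; limma adjusted p = 1.01e-06). SRSF10, which acts as a splicing repressor when dephosphorylated by heat stress, went from 120 ± 5.03 to 53.6 ± 3.84 FPKM (SD, n = 3; log2 fold change -1.16, limma adjusted p = 9.87e-07). SRSF5 lay just inside the fold threshold. Its 0 h libraries had 194, 175 and 174 FPKM and its 24 h libraries 92.7, 87.6 and 88.6, without overlap, for a log2 fold change of -1.01 ± 0.09 (SE; limma adjusted p = 2.43e-06). It lost the call on the fold alone without 0 h replicate 1 (log2 fold change -0.96), without 24 h replicate 2 (-0.99) and under median-of-ratios scaling (-0.89).

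The remaining members moved little. SRSF4 had 57.6 ± 1.85 FPKM at 0 h and 70.3 ± 2.53 at 24 h, and its 24 h libraries all lay above the 0 h libraries (log2 fold change 0.29, limma adjusted p = 0.0142). SRSF9 had 263 ± 9.31 and 305 ± 28.7 FPKM, and the lowest 24 h library lay within the 0 h range (limma adjusted p = 0.0554). SRSF11 had 118 ± 5.24 and 99.1 ± 8.51 FPKM (SD, n = 3 each; log2 fold change -0.26, limma adjusted p = 0.0185). The directions of SRSF4 and SRSF9 flipped under rescaling to a fixed sum per library (TPM), which moved the median of all genes from -0.05 to -0.67, and 57.0% to 87.6% of a library's FPKM lay on transcripts shorter than 300 bases. With TPM, SRSF4 was at -0.57 and SRSF9, at -0.66, was level with that median.

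**Figure D2:**
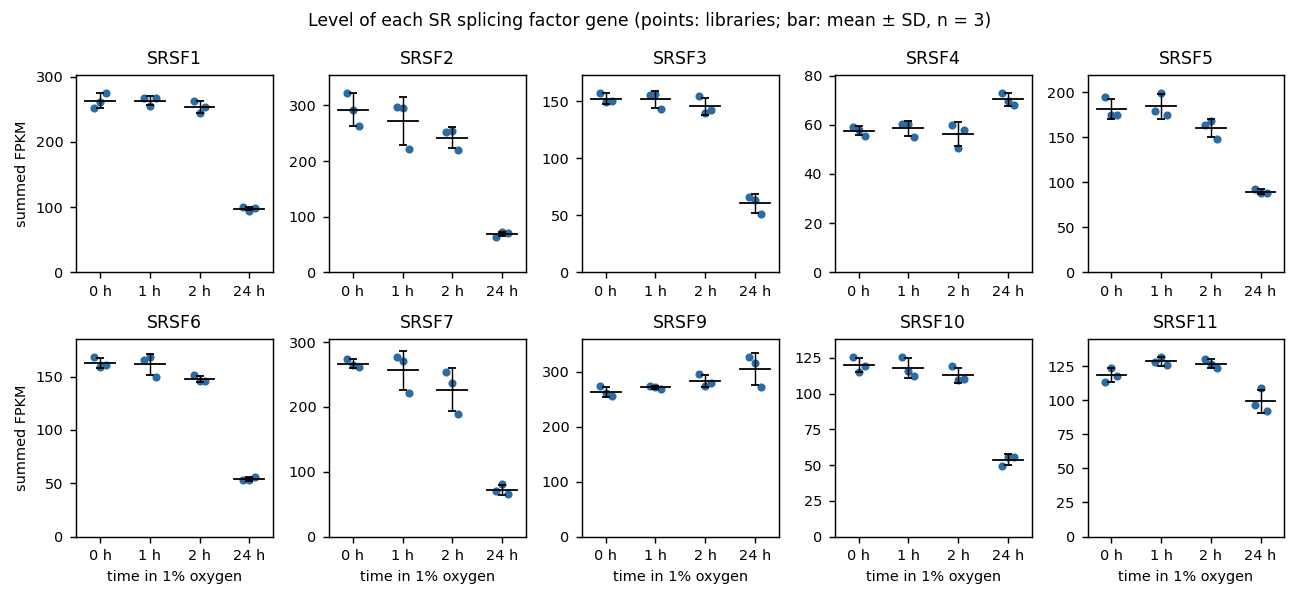
Summed FPKM of each SR gene (vertical axes, starting at 0) at 0, 1, 2 and 24 h in 1% oxygen. Points are libraries and black bars the mean ± SD of 3. All 24 h points lie below all earlier points for SRSF1, SRSF2, SRSF3, SRSF5, SRSF6, SRSF7, SRSF10 and SRSF11, and above them for SRSF4.

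No member was called at 1 h or 2 h, where 0.006% and 0.018% of all genes were called higher and 0% lower. Unadjusted p values under 0.05 were also absent among the members at both times, against 769 genes at 1 h and 2547 at 2 h over all genes. At 1 h the members' log2 fold changes lay between -0.11 and 0.12, and at 2 h between -0.27 (SRSF2) and 0.10. At 2 h the libraries of SRSF2, SRSF5, SRSF6 and SRSF7 all lay below those at 0 h, and those of SRSF9 above them. How often genes outside the family separate in this way was not counted, so this is a description. SRSF2 had a mean of 293 ± 30.3 FPKM at 0 h, 272 ± 43.0 at 1 h and 242 ± 19.2 at 2 h. SRSF6 had 151, 146 and 146 FPKM at 2 h against 168, 160 and 161 at 0 h. A fit with the replicate number as a block called no member at 2 h either.

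Within the genes, coding and noncoding isoforms did not move alike. In the 7 genes that fell, summed coding FPKM at 24 h was 0.172 to 0.401 of the 0 h mean (median 0.263), while summed noncoding FPKM was 0.454 to 2.77 of it (median 0.720). The noncoding share of the gene was larger at 24 h in all 7, by 9.17 to 36.5 percentage points. It was larger in 58.8% of the 6774 genes with both kinds of isoform. The 24 h libraries did not overlap the 0 h libraries in any of the 7, a separation that was not counted over all genes. Both upper ends belong to SRSF1 and to its NMD isoform ENST00000581979, without which SRSF1 noncoding FPKM went from 14.8 ± 6.10 to 7.85 ± 2.84 (SD, n = 3) and its noncoding share differed by 6.69 points. Over all 10 members the median difference was 12.6 points, against 0.815 points over the 6774 genes with both kinds of isoform (quartiles -2.12 and 5.07).

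The log2 ratio of noncoding to coding FPKM was tested with limma over these 6774 genes, with a call at an adjusted p under 0.05. It was higher at 24 h in 6 of 10 members and lower in none, and 7.57% of all genes were called higher and 3.25% lower. The median log2 change was 1.24 for the members and 0.13 for all genes. The calls were SRSF1 (3.65 ± 0.37, SE), SRSF5 (1.66 ± 0.24), SRSF2 (1.5 ± 0.25), SRSF7 (1.43 ± 0.25), SRSF3 (1.36 ± 0.23) and SRSF10 (1.11 ± 0.24), with limma adjusted p from 0.000483 to 0.0155. The SRSF1 call rested on the NMD isoform ENST00000581979, which was above the filter at 24 h alone, and without it SRSF1 was not called (1.28, limma adjusted p = 0.0697). SRSF6 fell in level without a called change in ratio (0.78 ± 0.37, limma adjusted p = 0.20). At 1 h and 2 h no member and none of the 6774 genes was called by limma, with 369 and 529 genes at an unadjusted p under 0.05, among them 0 and 2 members. The 2 were SRSF6 (log2 change -0.95, limma adjusted p = 0.555) and SRSF11 (-0.73, 0.495), both with a lower mean ratio than at 0 h. The noncoding share at 2 h was above that at 0 h in 10.0% of members (median difference -1.44 points), against 44.4% of all genes (-0.254 points).

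**Figure D3:**
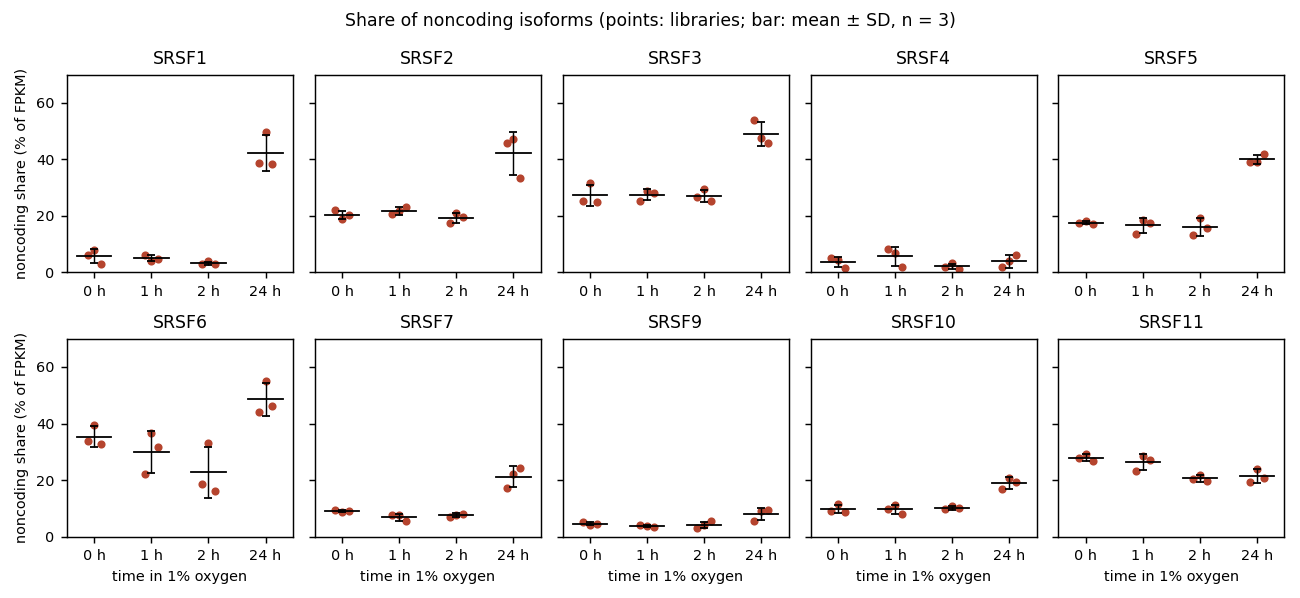
Share of noncoding isoforms in the summed FPKM of each SR gene (vertical axis, percent) at 0, 1, 2 and 24 h in 1% oxygen. Points are libraries and bars the mean ± SD of 3. The 24 h points lie above all 0 h points in every gene except SRSF4, where they overlap, and SRSF11, where they lie below.

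**Figure D4:**
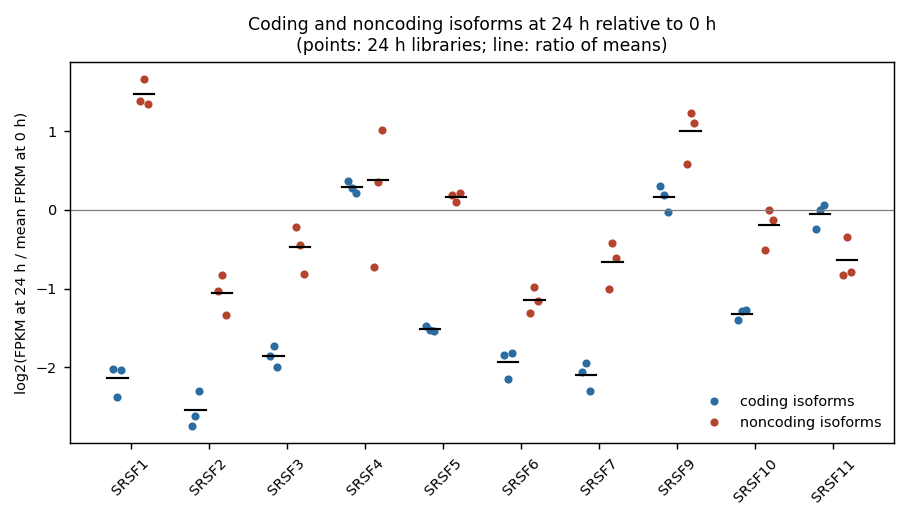
Coding (blue) and noncoding (red) summed FPKM of each SR gene in the 3 libraries at 24 h, as log2 of the ratio to the 0 h mean (points), with the ratio of means as a line and no change at 0. Coding points lie well below 0 in 7 genes, and the noncoding line lies above the coding line in every gene except SRSF11.

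SRSF3 had 4 isoforms, against 3 in SRSF6, and shows the pattern plainly. Its single coding isoform ENST00000373715 had 118, 102 and 113 FPKM at 0 h and 30.5, 33.4 and 27.8 at 24 h, a fall of 3.62-fold (log2 fold change -1.84 ± 0.10, SE; limma adjusted p = 2.47e-06). The NMD isoform ENST00000477442, which includes the cassette exon shown above, had 23.8, 35.0 and 22.0 FPKM at 0 h and 25.8, 15.1 and 11.7 at 24 h. These libraries overlapped, and the test was not passed (log2 fold change -0.65 ± 0.27, SE; limma adjusted p = 0.0925). Without 24 h replicate 1 the same isoform was called lower (-0.97, limma adjusted p = 0.0102), as it was with TPM that leaves out transcripts under 300 bases (-0.75, limma adjusted p = 0.0441). The retained-intron isoform ENST00000339436, which runs from the same cassette into the next intron, had 14.1 ± 2.2 and 11.9 ± 2.80 FPKM (SD, n = 3; limma adjusted p = 0.375). Together the noncoding share was 25.4%, 31.5% and 24.8% at 0 h and 53.8%, 47.7% and 45.7% at 24 h.

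SRSF7 repeated this with a retained segment in place of a cassette. The coding isoforms ENST00000409276, ENST00000446327 and ENST00000313117 were 4.27-, 4.10- and 4.85-fold lower at 24 h, and all were called (limma adjusted p from 1.50e-05 to 5.44e-05). The NMD isoform ENST00000443213 had 19.4, 17.6 and 16.5 FPKM at 0 h and 9.28, 15.0 and 12.6 at 24 h. Its 24 h values were all lower, but the change was not called (log2 fold change -0.54 ± 0.25, SE; limma adjusted p = 0.134), except with TPM (-1.31, limma adjusted p = 0.0435). Its share of the gene went from 6.68% ± 0.377 to 17.1% ± 3.34 (SD, n = 3). Of 3 noncoding SRSF7 isoforms tested, 1 fell, the NMD isoform ENST00000425778, from 3.66 ± 0.538 to 1.92 ± 0.664 FPKM (limma adjusted p = 0.0201). Over all noncoding transcripts 10.3% were called lower.

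SRSF6 carries its poison segment as a cassette too, yet here the NMD isoform fell with the coding one. Coding ENST00000244020 had 111, 96.4 and 109 FPKM at 0 h and 29.4, 23.8 and 29.97 at 24 h (log2 fold change -1.91 ± 0.14, SE; limma adjusted p = 8.86e-06). NMD isoform ENST00000483871 had 51.6, 58.6 and 49.7 FPKM at 0 h and 19.1, 21.4 and 13.8 at 24 h (-1.55 ± 0.30, SE; limma adjusted p = 0.00283). Both were apart from 0 h in every library, by similar amounts. A longer assembled form of the NMD isoform (class code j, 3790 bases) had 4.24 ± 1.15 FPKM at 0 h and 8.02 ± 4.0 at 24 h (SD, n = 3; limma adjusted p = 0.137, or 0.0234 without 24 h replicate 1). With it, the noncoding share was 35.4% ± 3.72 at 0 h and 48.5% ± 5.80 at 24 h. Counting class code = alone, the difference between the times was 5.74 points in place of 13.2. At 2 h the noncoding share was 18.7%, 33.1% and 16.3%, the widest spread of any member and time.

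By the annotated types SRSF1 showed the largest shift in noncoding share, and it rested on 1 isoform. The NMD isoform ENST00000581979 was listed at 0 in all 9 libraries from 0 to 2 h and had 29.3, 37.1 and 33.2 FPKM at 24 h, where it was the most abundant SRSF1 isoform in 3 of 3 libraries. It passed the filter on low values through the 24 h libraries alone, so no test of it is given. An exact 0 in such a table can be a failed estimate, so no fold is given. Coding ENST00000258962 had 99.3, 120 and 123 FPKM at 0 h and 23.3, 6.42 and 8.79 at 24 h (log2 fold change -3.31 ± 0.34, SE; limma adjusted p = 6.35e-05). Coding ENST00000582730 had 88.4, 85.2 and 97.1 FPKM at 0 h and 16.5, 16.4 and 25 at 24 h (-2.22 ± 0.16, SE; limma adjusted p = 9.81e-06).

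The typing of this last isoform matters. ENST00000582730 is annotated as coding, but it ends at the very stop codon printed above for ENST00000581979; it has no junction after that stop, whereas the NMD isoform does. The 2 isoforms together had 90.2 ± 6.16 FPKM at 0 h and 52.5 ± 6.23 at 24 h, which was 34.3% ± 1.47 and 53.9% ± 6.94 of the gene (SD, n = 3). The noncoding share of SRSF1 as annotated went from 5.69% ± 2.44 to 42.2% ± 6.32. With ENST00000582730 counted as noncoding it went from 40.0% ± 1.55 to 62.0% ± 5.99, a set that still holds ENST00000581979. That difference of 22.0 points, and the 6.69 points found without ENST00000581979, lie below the 22.4 points of SRSF5, so SRSF1 then no longer ranks first. With ENST00000581979 left out, the other noncoding isoforms had 14.8 ± 6.10 FPKM at 0 h and 7.85 ± 2.84 at 24 h, and the ratio was no longer called (log2 change 1.28, limma adjusted p = 0.0697; 8.59e-05 to 0.0697 over all alternatives). Another NMD isoform, ENST00000584668, went from 7.84 ± 4.41 FPKM to 0 in all 24 h libraries, and it passed the filter through earlier libraries alone. The SRSF1 locus (chr17:56066375-56085010) also holds transcripts of RP11-159D12.2 and RP11-159D12.5.

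SRSF2 lost nearly all of its main coding isoform. ENST00000359995 had 215, 203 and 181 FPKM at 0 h and 19.6, 14.7 and 25.1 at 24 h, 10.1-fold lower (log2 fold change -3.33 ± 0.19, SE; limma adjusted p = 2.47e-06). Another coding isoform with the same stop, ENST00000392485, had 26.7, 28.0 and 24.5 FPKM at 0 h and 11.6, 21.4 and 20.6 at 24 h. Its share of the gene went from 9.07% ± 0.704 to 25.7% ± 6.56, and in 24 h replicate 2 it was the most abundant isoform. Its level was called at the edge (limma adjusted p = 0.0492), with the call lost in 10 of the 12 fits without 1 library. The call was also lost with a replicate block (limma adjusted p = 0.0610), median-of-ratios scaling (0.0984), no filter (0.129), a pseudocount of 0.1 (0.0525) and the 2 groups alone (0.129). NMD isoform ENST00000585202 had 24.0, 28.1 and 15.5 FPKM at 0 h and 15.1, 6.66 and 4.41 at 24 h (log2 fold change -1.45 ± 0.38, SE; limma adjusted p = 0.0157). That call was lost without 0 h replicate 1 (limma adjusted p = 0.0513), 0 h replicate 2 (0.0597), 24 h replicate 2 (0.0516) or 24 h replicate 3 (0.0547). No filter (0.0642) and a fit of the 2 groups alone (0.0581) lost it too. The retained-intron isoform ENST00000586778 had 9.40 ± 3.31 and 8.48 ± 3.39 FPKM, and its share went from 3.18% ± 0.843 to 12.2% ± 4.33 (SD, n = 3; limma adjusted p of the level = 0.739).

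In SRSF5 most of the noncoding pool at 24 h consisted of retained-intron isoforms. These made up 8.41% ± 0.243 of the gene at 0 h and 26.2% ± 4.87 at 24 h, while its NMD isoform made up 2.08% ± 1.22 and 4.44% ± 3.08 (SD, n = 3). Retained-intron isoform ENST00000556184 had 9.11, 7.97 and 9.49 FPKM at 0 h and 10.3, 10.3 and 17 at 24 h (log2 fold change 0.44 ± 0.25, SE; limma adjusted p = 0.211). Of 11 SRSF5 noncoding isoforms tested 1 was called, against 11.2% of all noncoding transcripts called higher and 10.3% lower. It was the retained-intron isoform ENST00000554465, with 2.56, 1.64 and 2.03 FPKM at 0 h and 2.47, 4.8 and 6.85 at 24 h. These libraries overlapped, and its call (log2 fold change 0.93, limma adjusted p = 0.0498) was kept without 24 h replicate 1 and lost without any other single library (0.0539 to 0.168). A replicate block (0.0608), a pseudocount of 0.1 (0.0555), no filter (0.126) and the 2 groups alone (0.115) lost it too. So did TPM (0.735) and TPM leaving out transcripts under 300 bases (0.0864). Coding ENST00000557154 had 77.0, 69.1 and 77.1 FPKM at 0 h and 9.03, 9.77 and 18 at 24 h, 6.07-fold lower (-2.62 ± 0.23, SE; limma adjusted p = 2.58e-05). Coding ENST00000553369 and ENST00000553635 fell as well, by 2.87- and 3.61-fold (limma adjusted p = 0.00835 and 0.000543). The short coding isoform ENST00000555349 had 18.8 ± 2.50 and 15.8 ± 2.90 FPKM (limma adjusted p = 0.37). The most abundant SRSF5 isoform was ENST00000557154 in all 9 earlier libraries, and at 24 h it was ENST00000553369, ENST00000555349 and ENST00000557154 in replicates 1, 2 and 3.

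SRSF10 spread its level over many coding isoforms, and 7 of 8 tested fell, against 17.7% of all coding transcripts. The largest were ENST00000343255 (24.9 ± 1.89 to 9.54 ± 1.85 FPKM), ENST00000492112 (24.4 ± 1.97 to 6.47 ± 1.90) and ENST00000453840 (21.8 ± 1.54 to 9.88 ± 1.62; SD, n = 3; limma adjusted p from 7.00e-05 to 0.000509). None of its 8 noncoding isoforms tested was called, against 11.2% of all noncoding transcripts called higher and 10.3% lower. Its summed noncoding FPKM was 11.7 ± 1.43 at 0 h and 10.2 ± 1.78 at 24 h. The noncoding share was 9.18%, 11.5% and 8.70% at 0 h and 16.7%, 20.8% and 19.3% at 24 h. The call on its ratio was lost without 0 h replicate 1 (limma adjusted p = 0.0519), 0 h replicate 3 (0.0541) or 24 h replicate 2 (0.0561), and in a fit of the 2 groups alone (0.0722). SRSF10 transcripts were placed at 2 loci, 1 of them on an unplaced contig, so its reads can be divided between near-identical copies.

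In the 3 members not called at the gene level, as in SRSF3, SRSF6 and SRSF7, the most abundant isoform was the same in all 12 libraries. Coding SRSF4 ENST00000373795 had 50.6, 48.3 and 47.7 FPKM at 0 h and 65.3, 63.0 and 60.7 at 24 h, all higher (log2 fold change 0.36 ± 0.10, SE; limma adjusted p = 0.0168, or 0.0558 and 0.0548 without 0 h replicate 2 or 3, 0.0615 with TPM leaving out transcripts under 300 bases, and with the sign reversed under TPM over all transcripts). Coding SRSF9 ENST00000229390 had 243 ± 7.42 and 271 ± 29.6 FPKM (limma adjusted p = 0.251, or 0.0431 without 24 h replicate 3 and 0.0462 with median-of-ratios scaling). Coding SRSF11 ENST00000370951 had 41.1 ± 1.31 and 39.8 ± 2.65 FPKM (SD, n = 3; limma adjusted p = 0.755).

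Their noncoding isoforms went different ways. In SRSF9, 3 of 4 tested noncoding isoforms were called higher, against 11.2% of all noncoding transcripts, and 1 of the 3, an assembled form of ENST00000603963, passed the filter at 24 h alone. The others were the retained-intron isoforms ENST00000546942 (5.33 ± 0.872 to 10.5 ± 1.90 FPKM, limma adjusted p = 0.00827) and ENST00000548792 (4.57 ± 0.678 to 8.05 ± 2.29, limma adjusted p = 0.0479). The noncoding share of SRSF9 was still only 8.03% ± 2.18 at 24 h, against 4.59% ± 0.637 at 0 h, and its ratio passed solely without 24 h replicate 1 (log2 change 0.80, limma adjusted p = 0.113; 1.06 and 0.048 without that library). In SRSF4 the noncoding share was 3.64% ± 1.78 and 3.98% ± 2.27. In SRSF11 it was 27.9% ± 1.32 at 0 h, 20.6% ± 1.21 at 2 h and 21.3% ± 2.40 at 24 h (SD, n = 3), the one member with less at 24 h, and its isoform without a defined coding sequence, ENST00000463859, fell from 20.8 ± 1.89 to 9.14 ± 3.59 FPKM (limma adjusted p = 0.00416). The SRSF11 isoform ENST00000405432, which has no type in the reference used, ranged from 0.101 to 19.1 FPKM within the 3 libraries at 24 h.

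**Figure D5:**
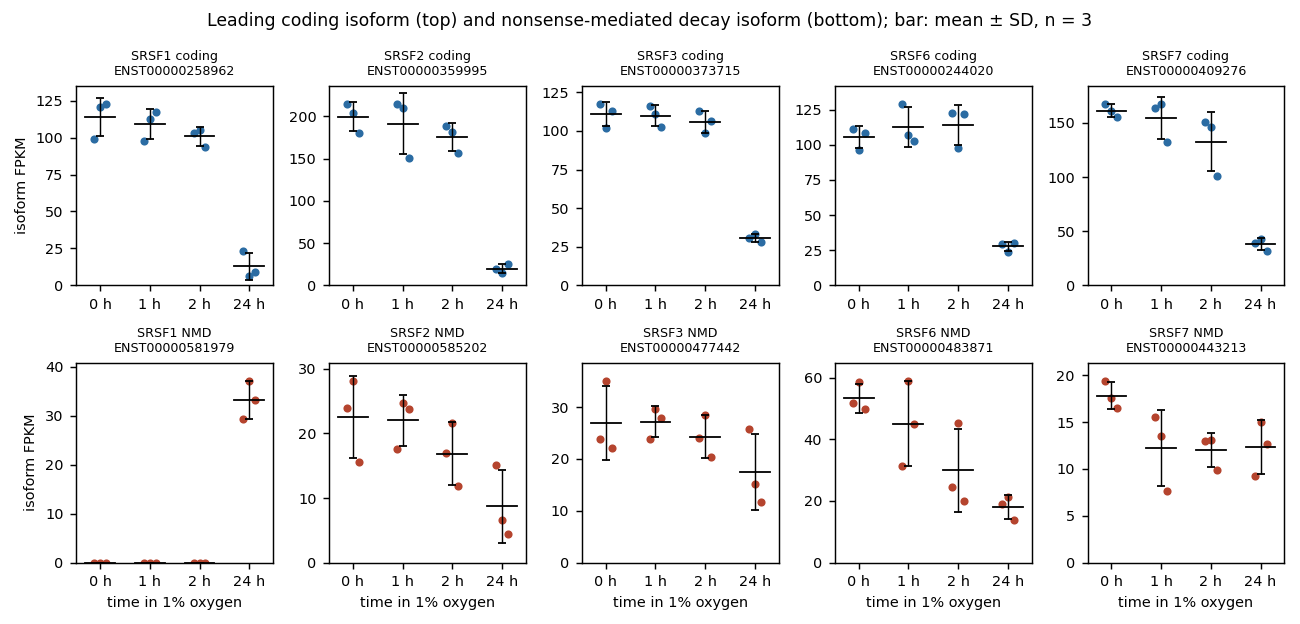
FPKM of the leading coding isoform (upper row, blue) and the leading NMD isoform (lower row, red) of SRSF1, SRSF2, SRSF3, SRSF6 and SRSF7 at 0, 1, 2 and 24 h in 1% oxygen; vertical axes start at 0 and differ between panels. Points are libraries and bars the mean ± SD of 3. Every coding isoform is lowest at 24 h, whereas the NMD isoforms range from 0 before 24 h to 33.2 FPKM at 24 h in SRSF1 through overlapping values in SRSF3 to a drop from 53.3 to 18.1 FPKM in SRSF6.

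Across the family, 104 of the 156 isoforms passed the minimum of 0.5 FPKM in 3 libraries, and at 24 h limma called 10 of them higher and 31 lower (adjusted p under 0.05). Over all 62162 transcripts tested, 11.3% were higher and 15.3% lower. At 1 h and 2 h no isoform of the family was called, and 0.00161% of all transcripts were higher and 0.00322% lower at 1 h, with 0.00322% higher and 0% lower at 2 h. Of the called isoforms, 3 higher ones exceeded the minimum at 24 h alone and 4 lower ones at earlier times alone, so those could pass the filter because they differed. Among 47 coding isoforms 25 were lower and 4 higher (53.2% and 8.51%, against 17.7% and 11.9% of all coding transcripts). Their median log2 fold change was -1.11, against -0.11. Among the lower ones, the SRSF1 ENST00000584773 forms of 6505, 5610 and 1317 bases exceeded the filter at earlier times alone. Among the higher ones, its form of 3388 bases exceeded it at 24 h alone, so the coding shares are a description. Among 18 NMD isoforms 4 were lower and 2 higher (22.2% and 11.1%, against 13.7% and 7.54% of all NMD transcripts; median -0.34, against -0.17). Both higher NMD isoforms exceeded the filter at 24 h alone, and 1 of the 4 lower ones, SRSF1 ENST00000584668, at earlier times alone, so these shares are a description. Among 22 retained-intron isoforms 1 was lower and 4 higher (4.55% and 18.2%, against 7.41% and 14.6%; median 0.23, against 0.12), shares near those of all retained-intron transcripts. Of the 4 coding isoforms that rose, 3 belonged to SRSF1, all assembled forms with class code j, and 1 was the main isoform of SRSF4. Without 0 h replicate 2 or 0 h replicate 3, 6 isoforms were called higher in place of 10.

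Genes around the family were taken from lists of SR kinases with SR-related proteins and of nonsense-mediated decay factors. Of 17 SR-related genes tested at 24 h, 1 rose and 2 fell (5.88% and 11.8%), shares near the 8.76% and 9.51% of all genes. CLK3, a kinase that phosphorylates SR proteins, rose from 24.4 ± 2.56 to 74.3 ± 10.8 FPKM (SD, n = 3; limma adjusted p = 1.13e-06), a call that TPM did not give. TRA2A and TRA2B, SR-like splicing activators, fell from 96.8 ± 5.62 to 42.4 ± 6.96 FPKM and from 151 ± 0.765 to 57.5 ± 2.09 (limma adjusted p = 5.04e-06 and 2.74e-07). The median log2 fold change of the list was -0.07. Its noncoding to coding ratio was higher in 4 of 16 genes tested (TRA2A, PNISR, RBM39 and U2AF2) and lower in none, against 7.57% and 3.25% of all genes.

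Of 16 nonsense-mediated decay factors, none rose and 3 fell (18.8%; median log2 fold change -0.36), against 8.76% and 9.51% of all genes. These were the exon junction core paralogs MAGOHB (53.5 ± 5.54 to 14.7 ± 1.15 FPKM) and MAGOH (187 ± 24.1 to 79.5 ± 11.0 FPKM), whose near-identical sequence can share reads, and SMG8, a subunit of the SMG1 kinase complex (19.7 ± 0.900 to 8.99 ± 1.32 FPKM; SD, n = 3; limma adjusted p from 3.59e-07 to 2.13e-05). The ratio was higher in 2 of 12 tested, SMG5 and SMG9 (16.7%, against 7.57% of all genes). Whether the change in these factors bears on the SR isoforms was not tested.

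Outside the family, the 5 genes whose noncoding to coding ratio followed the mean centred ratio of the members most closely were RPS9, TRA2A, PRPF4B, RBM39 and KAT2A. Pearson's r over the 12 libraries was 0.986, 0.966, 0.966, 0.962 and 0.961. These were the highest of 6764 genes and are given as a description, since all libraries share the step between 2 h and 24 h. Their log2 ratios differed between 0 h and 24 h by 0.60, 1.54, 1.72, 1.07 and 1.62.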

How the data were processed

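The authors aligned paired reads of strand-specific poly(A) libraries to hg19, assembled transcripts per sample with Cufflinks, merged them and compared them with Ensembl. They deposited FPKM per transcript and library, and that table, with its transcript lengths, was the starting point. No normalisation between libraries is given in the sources used here. Per the labels, base calling used CASAVA 1.8.2.

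FPKM was summed per gene name over transcripts of class code = or j. Types came from GENCODE 44 lifted to GRCh37, by nearest reference transcript; 11 member transcripts had none. Of 189324 reference transcripts, 99.5% lay in the locus the file gives. Exons and stops came from that annotation.

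Tests used limma 3.58.1 (lmFit, eBayes with trend) in R 4.3.3 on log2(FPKM + 0.5) over all 12 libraries, two-sided, with Benjamini-Hochberg adjustment over all features with FPKM above 0.5 in at least 3 libraries. On this scale changes of low values are understated. Summaries used Python 3.11.15 with numpy, pandas and matplotlib.

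Named isoforms had a mean share of at least 10% at some time, or at least 5% and a call at 24 h; others were named after their values were seen. Of each list, at most 4 called genes with the largest changes were named at the gene level. Members and lists were chosen with earlier results of these data known.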

Additional observations from a re-analysis of the deposited data

Results flagged for a closer look

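Members were flagged where the limma difference between 24 h and 2 h had an adjusted p under 0.05 over all genes. No minimum fold was applied, and at the gene level SRSF5, SRSF11 and SRSF4 would not pass the one used for calls above. How many genes outside the family pass this rule is not given here. Against 0 h, 10001 of 16680 genes had an unadjusted limma p under 0.05 at 24 h. At the gene level the log2 difference was -1.81 for SRSF2, -1.65 for SRSF7, -1.45 for SRSF6, -1.37 for SRSF1, -1.27 for SRSF3, -1.07 for SRSF10, -0.83 for SRSF5, -0.36 for SRSF11 and 0.33 for SRSF4, with adjusted p from 1.67e-07 to 0.00781. For the log2 ratio of noncoding to coding FPKM it was 4.40 for SRSF1, 1.84 for SRSF5, 1.73 for SRSF6, 1.69 for SRSF7, 1.59 for SRSF2, 1.37 for SRSF3 and 1.04 for SRSF10, with adjusted p from 0.000345 to 0.0277. The SRSF1 difference includes the NMD isoform ENST00000581979, which was above the filter at 24 h alone, so it is a description. Its value without that isoform is not given here. The SRSF6 ratio passed against 2 h (adjusted p = 0.0191) and not against 0 h (0.20), and its noncoding share at 2 h had the wide spread given above. Both contrasts use the same 24 h libraries.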

How the results depend on the processing

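The counts of members called at the gene level and by the ratio stayed within 1.5 times under every alternative, apart from 1 member higher (SRSF4) in place of 0 once the minimum fold was dropped. They lay between 6 and 7 lower genes and between 5 and 7 higher ratios without 1 library. Isoforms called higher at 24 h numbered 5 with TPM, 6 with class code = alone and 6 to 12 without 1 library, against 10; isoforms called lower numbered 27 to 32 without 1 library and 26 (the 2 groups alone) to 39 (TPM) over the other alternatives, against 31. The difference in noncoding share at 24 h was 49.6 points for SRSF1 and 5.74 for SRSF6 with class code = alone, 24.2 for SRSF5 over isoforms past the filter, and for SRSF1 22.0 with ENST00000582730 counted as noncoding and 6.69 without ENST00000581979, both chosen after seeing the data. With TPM no SR-related gene was higher and 6 were lower, 6 decay factors were lower and 5 had a higher ratio, and over all genes 215 were higher and 3893 lower. With TPM the gene-level log2 changes reversed for SRSF4 (-0.57) and SRSF9 (-0.66), as did the isoforms SRSF4 ENST00000373795 (-0.49), SRSF5 ENST00000556184 (-0.36), SRSF6 ENST00000483871 of 3790 bases (-0.053), SRSF9 ENST00000229390 (-0.72) and SRSF11 ENST00000370950 of 3969 bases (-0.65). Other changes of sign were those of SRSF11 ENST00000370951 with median-of-ratios scaling (0.066), and, without 1 library, SRSF2 ENST00000586778 (-0.39 to 0.19), SRSF11 ENST00000405432 (-2.42 to 0.10), ENST00000370950 of 3969 bases (-0.051 to 0.32) and ENST00000370949 (-0.49 to 0.048). The SRSF4 ratio was -0.0055 with median-of-ratios scaling, -0.11 over isoforms past the filter, -0.028 with a pseudocount of 1 and -0.37 to 0.44 without 1 library, and the SRSF11 ratio was 0.15 with nonsense-mediated decay and retained-intron isoforms alone, an alternative chosen after seeing the data. The cause was not tested. Replicate numbers were not treated as pairs, since the labels do not say that a number marks a shared batch. Libraries with the same number correlated over 0.1 in 10 of 18 pairs (mean 0.154, range -0.083 to 0.428). Of the 12 libraries, 10 correlated best with their own number, so libraries with the same number may not be independent. With a replicate block, 7 member genes were lower, 6 ratios higher, and 8 isoforms higher and 30 lower at 24 h. The 3 pairs of 0 h and 2 h libraries each correlated over 0.1 (0.129 to 0.362), and with the block no member gene, isoform or ratio was called at 2 h. Depth sets the smallest value that can be read, and the spread of 3 libraries is the one measure of error.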
